A study of Mus musculus with 68 samples.

Results

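The comparison described here set motor neurons made to express Zic1 against motor neurons made to express YFP, the fluorescent protein that served as the control for induction. It was drawn from a screen for factors that give motor neurons phrenic properties, the phrenic neurons being the cervical cells that drive the diaphragm. Samples were taken by title: 2 arrays titled Zic1, of batches 5 and 6, and 4 arrays titled YFP whose cells carried the CD2 reporter, of batches 1, 2 and 3. These are 6 of the 68 arrays of the series. The whole series covered 31 groups, and 45 of its arrays held CD2 cells.

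The protocols give the groups 1 history apart from the induced gene. Mouse embryonic stem cells, with the strain labelled C57/BL6, grew as embryoid bodies without serum, and from day 2 received retinoic acid and Smoothened agonist, which push cells toward a caudal and ventral neural fate. On day 5 the bodies were dissociated and the cells carrying the motor neuron surface reporter CD2 were held back magnetically. Doxycycline then induced the transgene while the sorted cells lay on matrigel for 30 hours. The H4 arrays, labelled H4 parental, are the third group used, with 1 array in each of batches 2, 4 and 5. Whether H4 cells carried a transgene or received doxycycline is not clear from the labels, which mark another parental line, E3, both with and without the word induced. Cells of the Hoxa5 line (1 array), the Hoxc6 line (2 arrays) and the Lhx3 line (1 array) were also in batch 5, and 1 Lhx3 array was in batch 6. The labels give neither the number of clones behind a line nor whether replicates were separate cultures. The p-values therefore rest on the spread between arrays, and that spread may be technical. In the comparisons with YFP and H4 it was estimated over all 68 arrays, most of them of other lines. In the comparison with the other lines of batches 5 and 6 it was estimated over 8 arrays.

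Zic1 belongs to a family of zinc finger transcription factors related to the GLI proteins, the factors that carry hedgehog signals to the genome. In the embryo it is known from the dorsal neural tube, the neural crest border and the granule neuron precursors of the cerebellum. Motor neurons arise on the opposite, ventral side, under hedgehog signalling, and are marked by the homeodomain factors Isl1, Mnx1 and Lhx3 and by the acetylcholine genes Chat and Slc18a3.

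Zic1 and YFP shared no batch. The difference between them was therefore fitted with limma across all 68 arrays with a term for each group and each batch, so that lines present in several batches carried the adjustment. Values are on the log2 scale, where 1 is a 2-fold difference, and ± is followed by the fit's standard error. In that estimate the Zic1 arrays had weights of 0.75 (batch 5) and 0.25 (batch 6), and the H4 array of batch 5 a weight of -0.595, larger in size than that of any single YFP array (-0.351 to -0.198). A gene is said to have risen or fallen where the p adjusted over all 19938 genes was under 0.05. Array medians were 7.69 and 7.72 in Zic1 and 7.68 to 7.82 in YFP, and the 2 Zic1 arrays correlated across genes at 0.991. The median of all genes moved by -0.03 between Zic1 and YFP.

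The Zic1 transcript itself rose, by a modest amount. Its probe set read 7.29 in the batch 5 and 7.00 in the batch 6 Zic1 array, each below its array's median (7.72 and 7.69). It read 6.23, 5.91, 6.27 and 6.55 in the YFP arrays and 5.93 in the batch 5 H4 array. Both Zic1 arrays stood above all 43 other CD2 arrays, which ran from 5.91 to 6.67. The fitted difference was 1.17 ± 0.20 (adjusted p = 0.00139), or 2.24-fold. Without the Zic1 array of batch 5 it was 1.13 (adjusted p = 0.0751), and without the H4 array of batch 5 it was 0.84 (adjusted p = 0.0794). With Zic1, YFP and H4 arrays alone it was 0.91 (adjusted p = 0.269). The labels do not say which stretch of the transcript the transgene carries, so how far these probes read it was not determined here. None of the other 3 measured family members passed the test: Zic2 differed by 0.18, Zic4 by 0.22 and Zic5 by -0.21.

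In all, 58 genes differed between Zic1 and YFP cells, 39 higher (0.196% of genes) and 19 lower (0.0953%), together 0.291%. At an unadjusted p under 0.05 there were 2137. The median of the rises was 1.33, with 29 of 39 at 1 or more, while the median of the falls was -0.98, with 9 of 19 at -1 or below. Both Zic1 arrays lay above all YFP arrays in 28 of the 39 risen genes, as in 8.56% of all genes, and below them in 12 of the 19 fallen genes, as in 6.55% of all genes. They lay above all 43 other CD2 arrays in 15 of the 39 risen genes and in 61 of all 19938 genes. They lay below all 43 in 2 of the 19 fallen genes and in 27 of all genes. Most genes so placed were therefore not called. The number of calls was 142 without the H4 array of batch 5 and 139 in a fit with no batch terms, but 34 with array weights, 19 with CD2 arrays only and 15 with Zic1, YFP and H4 arrays alone. The balance of rises and falls moved as well, from 39 and 19 to 44 and 44 without batch 4, 25 and 25 among brighter genes, and 17 and 2 with CD2 arrays only.

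Same-batch neighbours gave a second reading of each gene. Against the H4 array of batch 5, the batch 5 Zic1 array differed in the fitted direction in all 39 risen and all 19 fallen genes, where 63.5% of all genes did so, but both arrays enter the fit. Against the Lhx3 array of batch 5 it did so in 32 of the 39 risen but 9 of the 19 fallen genes, where 42.7% of all genes did. In batch 6, Zic1 and Lhx3 cells differed in that direction in 34 of the 39 and 14 of the 19 genes, against 52.1% of all genes. The Lhx3 arrays enter the main fit as well, with weights of 0.25 (batch 5) and -0.25 (batch 6). The counts against Lhx3 are therefore not independent of the choice of genes either. To keep batch 6 apart from the choice of genes, a check chosen after seeing the data, the fit was repeated without its Zic1 array and called 40 genes (0.201%), 32 higher and 8 lower. Of those 32, 29 (90.6%) were also higher in Zic1 than in Lhx3 cells of batch 6, by a median of 0.85, where 49.1% of all genes with a positive fitted difference were. Of those 8, 6 (75%) were also lower there, by a median of -0.32, where 47.7% of all genes with a negative fitted difference were. The batch 6 arrays had no part in that fitted difference. Those left in the fit did enter the estimate of spread, so batch 6 was not wholly apart from the choice of genes. The Zic1 arrays may also share a clone, which the labels do not give, and the Lhx3 cells carried an induced gene of their own. These shares are therefore not an independent test of the rises and falls.

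**Figure D1:**
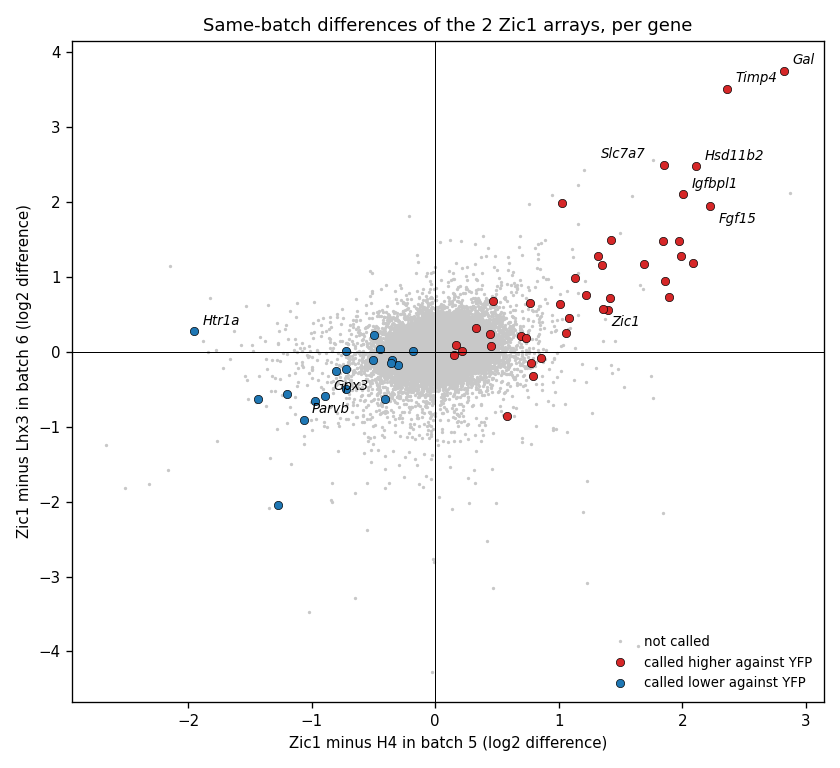
Each point is a gene, placed by the log2 difference between Zic1 and H4 arrays in batch 5 (horizontal) and between Zic1 and Lhx3 arrays in batch 6 (vertical); red and blue points are genes called higher or lower against YFP. Gal lies at 2.83 and 3.76, Timp4 at 2.36 and 3.52, and Htr1a at -1.95 and 0.27.

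Promoters of genes at both ends of the response are shown for the letters they hold at a ZIC-type core, CCTGCTG, and a longer GLI-type core, GACCACCCA. RefSeq promoters of build GRCm38.p6, each 250 bases before to 50 bases after the start of transcription, were matched by Entrez gene identifier. A promoter was found for 26 of the 39 risen and 12 of the 19 fallen genes. On either strand CCTGCTG occurred in 5 of 35 promoters of risen genes (14.3%), in 4 of 17 of fallen genes (23.5%) and in 10.5% of all 32851 promoters. Some genes have several promoters. Counted by gene, it occurred in 4 of 26 risen, 3 of 12 fallen and 3237 of all 27025 genes, and no test was run. GACCACCCA was in 0 of the 35, 0 of the 17 and 0.253% of all. Gal is printed as the gene with the largest rise, and Angptl1 and Parvb as a risen and a fallen gene with a single ZIC-type core, in capitals. Their windows were chr19:3414495-3414794, minus strand, for Gal, chr1:156838773-156839072, plus strand, for Angptl1, and chr15:84231793-84232092, plus strand, for Parvb.
Gal: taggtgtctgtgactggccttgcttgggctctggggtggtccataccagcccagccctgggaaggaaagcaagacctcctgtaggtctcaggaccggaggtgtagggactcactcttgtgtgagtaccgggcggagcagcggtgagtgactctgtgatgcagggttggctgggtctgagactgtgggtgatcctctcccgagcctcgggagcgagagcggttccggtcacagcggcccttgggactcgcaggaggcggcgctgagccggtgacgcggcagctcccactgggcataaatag
Angptl1: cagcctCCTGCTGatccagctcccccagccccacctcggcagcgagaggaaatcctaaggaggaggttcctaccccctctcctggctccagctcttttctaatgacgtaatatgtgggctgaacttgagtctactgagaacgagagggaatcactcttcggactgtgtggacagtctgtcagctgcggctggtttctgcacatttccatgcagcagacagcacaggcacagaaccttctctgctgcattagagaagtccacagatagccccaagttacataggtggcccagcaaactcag
Parvb: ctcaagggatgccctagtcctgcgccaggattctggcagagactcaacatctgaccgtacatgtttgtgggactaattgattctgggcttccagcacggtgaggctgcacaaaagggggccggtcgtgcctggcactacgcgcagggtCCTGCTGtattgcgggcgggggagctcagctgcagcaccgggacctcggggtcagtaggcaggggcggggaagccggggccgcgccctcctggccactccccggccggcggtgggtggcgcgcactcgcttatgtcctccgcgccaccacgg
The core begins 244 bases before the start in Angptl1 and 102 bases before it in Parvb, on the plus strand of the gene in both, and the Gal window holds neither motif. A match of letters is a description and not a site of binding.

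The 10 largest rises are described in order of what their products are, first secreted proteins, then membrane proteins and enzymes. That order is for reading, and no class of product was counted over all genes or tested. Gal, the precursor of the neuropeptide galanin, had the largest fitted difference. It read 12.43 in the batch 5 and 12.43 in the batch 6 Zic1 array. The levels were 9.09, 8.72, 9.57 and 10.28 in the YFP arrays and 9.61 in the batch 5 H4 array. No other CD2 array went above 10.45, so the Zic1 arrays stood apart from all 43. The fitted rise was 2.83 ± 0.47 (adjusted p = 0.00103), or 7.08-fold. Among the 17 measured neuropeptide genes Gal was the one that passed, and the median of that list was -0.18.

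Timp4 encodes a tissue inhibitor that blocks matrix metalloproteinases. It read 9.59 in the batch 5 and 9.92 in the batch 6 Zic1 array, and 7.09, 6.98, 6.84 and 7.40 in the YFP arrays. The batch 5 H4 array read 7.22 and no other CD2 array exceeded 7.78. Its rise was 2.50 ± 0.29 (adjusted p = 1.53e-06). Zic1 and YFP arrays were separated by more than the whole range of the YFP arrays.

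Igfbpl1, which resembles the insulin-like growth factor binding proteins, read 10.16 in the batch 5 and 9.85 in the batch 6 Zic1 array, and 8.39, 8.33, 7.92 and 8.30 in the YFP arrays. The H4 array of batch 5 read 8.15. The rise was 2.48 ± 0.30 (adjusted p = 2.19e-06). A single other CD2 array, titled Notch1 ICD (30), of batch 3, reached the lower Zic1 array, at 9.86.

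Fgf15, a secreted growth factor of the developing neural tube and gut, read 10.33 in the batch 5 and 9.89 in the batch 6 Zic1 array. The YFP arrays read 7.83, 7.67, 7.97 and 8.07, all below both Zic1 arrays. Its rise of 2.31 ± 0.23 (adjusted p = 5.71e-08) had the smallest adjusted p of the comparison. Both Notch1 ICD (30) arrays of batch 3 read higher still, at 11.65 and 12.32. In batch 5 the Lhx3 array, at 9.04, also stood above the YFP arrays, and against the same-batch lines together the adjusted p for Zic1 was 0.067.

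Angptl1, an angiopoietin-like secreted protein, read 8.52 in the batch 5 and 7.48 in the batch 6 Zic1 array, against 6.57 to 7.08 in the YFP arrays and 6.54 in the batch 5 H4 array. The groups did not overlap, and the rise was 1.78 ± 0.33 (adjusted p = 0.0048). Without the batch 5 Zic1 array its adjusted p was 0.157, and with Zic1, YFP and H4 arrays alone it was 0.3.

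Slc7a7, the light subunit of a cationic amino acid transporter, read 9.02 in the batch 5 and 9.63 in the batch 6 Zic1 array. It read 7.16, 7.52, 7.48 and 7.30 in the YFP arrays and 7.17 in the batch 5 H4 array. The Zic1 arrays stood above all 43 other CD2 arrays, the highest of which was 7.99, and the rise was 2.15 ± 0.23 (adjusted p = 4.11e-07).

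Gfra3, the co-receptor through which Ret binds the neurotrophic ligand artemin, read 10.74 in the batch 5 and 9.70 in the batch 6 Zic1 array. The YFP arrays ran from 8.45 to 9.25 and did not overlap with Zic1. The rise was 1.84 ± 0.26 (adjusted p = 8.25e-05), with an adjusted p of 0.0607 without the batch 5 Zic1 array and 0.261 with Zic1, YFP and H4 arrays alone. A Klf5 array of batch 1 reached 9.93. Of 16 measured trophic factors and receptors it was the one that passed. The related co-receptors Gfra1 and Gfra2, named outside the rule after their values were seen, differed by 0.93 (adjusted p = 0.32) and 0.32 (adjusted p = 0.762), and the signalling receptor Ret, likewise named, by -0.17 (adjusted p = 0.84).

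Cd9, a tetraspanin of the cell surface, read 10.51 in the batch 5 and 10.34 in the batch 6 Zic1 array, against 8.29 to 8.65 in YFP and 8.51 in the batch 5 H4 array. Its rise was 1.76 ± 0.28 (adjusted p = 0.000715), and without the batch 5 Zic1 array the adjusted p was 0.0516. No other CD2 array exceeded 9.20.

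The enzymes were Hsd11b2, which inactivates glucocorticoids, and Agmo, which cleaves ether lipids. Hsd11b2 read 11.83 in the batch 5 and 12.30 in the batch 6 Zic1 array, and 9.76, 9.61, 10.76 and 10.16 in the YFP arrays. The H4 array of batch 5 read 9.71. Both Zic1 arrays were above all 43 other CD2 arrays. The rise was 2.20 ± 0.42 (adjusted p = 0.00608), and without the H4 array of batch 5 it was 2.10 (adjusted p = 0.054). Its call was also lost with CD2 arrays only (adjusted p = 0.0787) and without batch 4 (adjusted p = 0.0725). Agmo read 8.10 in the batch 5 and 7.57 in the batch 6 Zic1 array, against 5.49 to 5.88 in YFP and 6.74 in the batch 5 H4 array. Its rise was 2.07 ± 0.37 (adjusted p = 0.00333), and without the batch 5 Zic1 array the adjusted p was 0.217, and without batch 4 it was 0.0797.

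**Figure D2:**
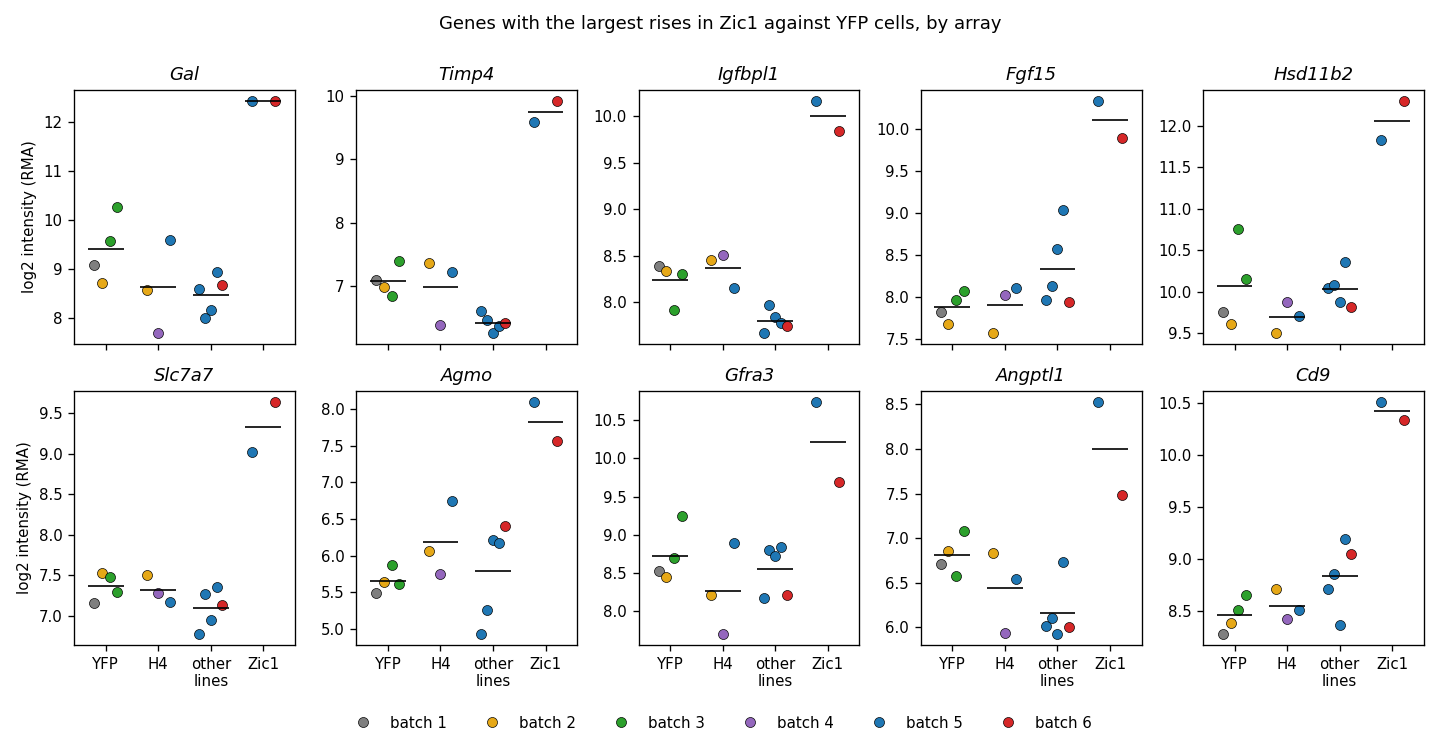
Each panel gives a gene, with log2 intensity on the vertical axis and 1 point per array, coloured by batch; lines are group means, and "other lines" are the Hoxa5, Hoxc6 and Lhx3 arrays of batches 5 and 6. In all 10 genes both Zic1 arrays lie above every YFP and H4 array shown.

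Among the falls, Gpx3, a secreted glutathione peroxidase, read 11.15 in the batch 5 and 11.22 in the batch 6 Zic1 array. It read 12.91, 12.09, 12.13 and 11.82 in the YFP arrays and 12.04 in the batch 5 H4 array. Parvb, an actin-binding protein of focal adhesions, read 10.21 in the batch 5 and 10.13 in the batch 6 Zic1 array. It read 11.14, 10.88, 11.46 and 10.96 in the YFP arrays and 11.27 in the batch 5 H4 array. In these 2 genes both Zic1 arrays lay below all 43 other CD2 arrays, the lowest of which read 11.62 for Gpx3 and 10.55 for Parvb. The fitted falls were -1.22 ± 0.22 (adjusted p = 0.00402) for Gpx3 and -1.22 ± 0.23 (adjusted p = 0.00589) for Parvb. The adjusted p was 0.0751 for Gpx3 without the batch 5 Zic1 array, and 0.0609 for Parvb without the batch 5 H4 array.

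Adam12, a membrane metalloprotease, read 8.38 in the batch 5 and 8.28 in the batch 6 Zic1 array, below 9.30 to 9.83 in YFP. It fell by 1.29 ± 0.25 (adjusted p = 0.00756), and a single other CD2 array, titled Lhx3 (DN), of batch 3, read as low, at 8.38. Its adjusted p was 0.195 without the batch 5 Zic1 array and 0.078 without the batch 5 H4 array.

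Htr1a, a serotonin receptor gene, had the largest fitted fall, but was as low in several same-batch lines. It read 7.35 in the batch 5 and 8.29 in the batch 6 Zic1 array, and 9.12, 8.75, 9.15 and 8.93 in the YFP arrays. The H4 array of batch 5 was high, at 9.30, as was the Hoxa5 array of that batch, at 8.86. The Hoxc6 arrays of batch 5 were low, at 7.08 and 7.02. The fitted difference was -2.12 ± 0.29 (adjusted p = 6.08e-05). The Lhx3 arrays read 7.08 in batch 5 and 8.01 in batch 6, each lower than the Zic1 array beside it, and against all other lines of those batches the difference was -0.22 ± 0.66 (adjusted p = 1). With no batch terms the fall against YFP was 1.17 in size with an adjusted p of 0.26.

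The next fitted differences were those of Plppr5, a phospholipid phosphatase-related membrane protein, at -1.93 ± 0.42 (adjusted p = 0.0267), and of Cbln2, a cerebellin that organises synapses, at -1.92 ± 0.43 (adjusted p = 0.0347). Cbln2 read 9.88 in the batch 5 and 9.94 in the batch 6 Zic1 array, below the lowest YFP array at 10.34, and from 8.93 to 11.45 across the same-batch lines. Plppr5 read 8.71 in the batch 5 and 9.21 in the batch 6 Zic1 array, against 9.37 to 10.51 in YFP. With no batch terms the differences were -0.56 (adjusted p = 0.819) for Cbln2 and -0.95 (adjusted p = 0.629) for Plppr5, and with batch as a random block -0.70 (adjusted p = 0.8) and -1.01 (adjusted p = 0.616). For Cbln2 the call was lost without any of 5 arrays (either Zic1 array, the YFP arrays of batches 1 and 2 or the H4 array of batch 4; adjusted p 0.0537 to 0.113). For Plppr5 it was lost without any of 6 (either Zic1 array, the YFP arrays of batches 1 and 2 or the H4 arrays of batches 2 and 5; adjusted p 0.0502 to 0.113).

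The remaining falls named were -1.14 ± 0.24 (adjusted p = 0.0205) for the transmembrane protein gene Shisal1, -1.05 ± 0.23 (adjusted p = 0.0249) for the glutathione transferase gene Mgst3, -1.04 ± 0.23 (adjusted p = 0.0267) for the small GTPase gene Rab15 and -0.98 ± 0.22 (adjusted p = 0.0328) for Ccdc177. Each lost its call without at least 1 array, with adjusted p up to 0.252 (Shisal1, without the batch 5 H4 array), 0.0814 (Mgst3, without the batch 5 Zic1 array), 0.126 (Rab15, without the batch 6 Zic1 array) and 0.136 (Ccdc177, without the batch 6 Zic1 array). Mgst3 read 10.10 and 10.44 in Zic1, inside the YFP range of 9.90 to 10.50, so its fitted fall came from the batch adjustment. With no batch terms the differences were -0.39 (adjusted p = 0.591) for Rab15 and -0.23 (adjusted p = 0.651) for Ccdc177, so the adjustment makes up most of those falls too. With CD2 arrays only, 8 of the 10 falls lost their call (adjusted p 0.057 to 0.254), the exceptions being Htr1a and Gpx3. With Zic1, YFP and H4 arrays alone all 10 lost it (adjusted p 0.216 to 1). Plain means ran against the fit in 5 called genes, singled out after their values were seen: Mgst3 among the falls, and Tbrg3, Dmxl1, Mir181a-1 and 2310067E19Rik among the rises.

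**Figure D3:**
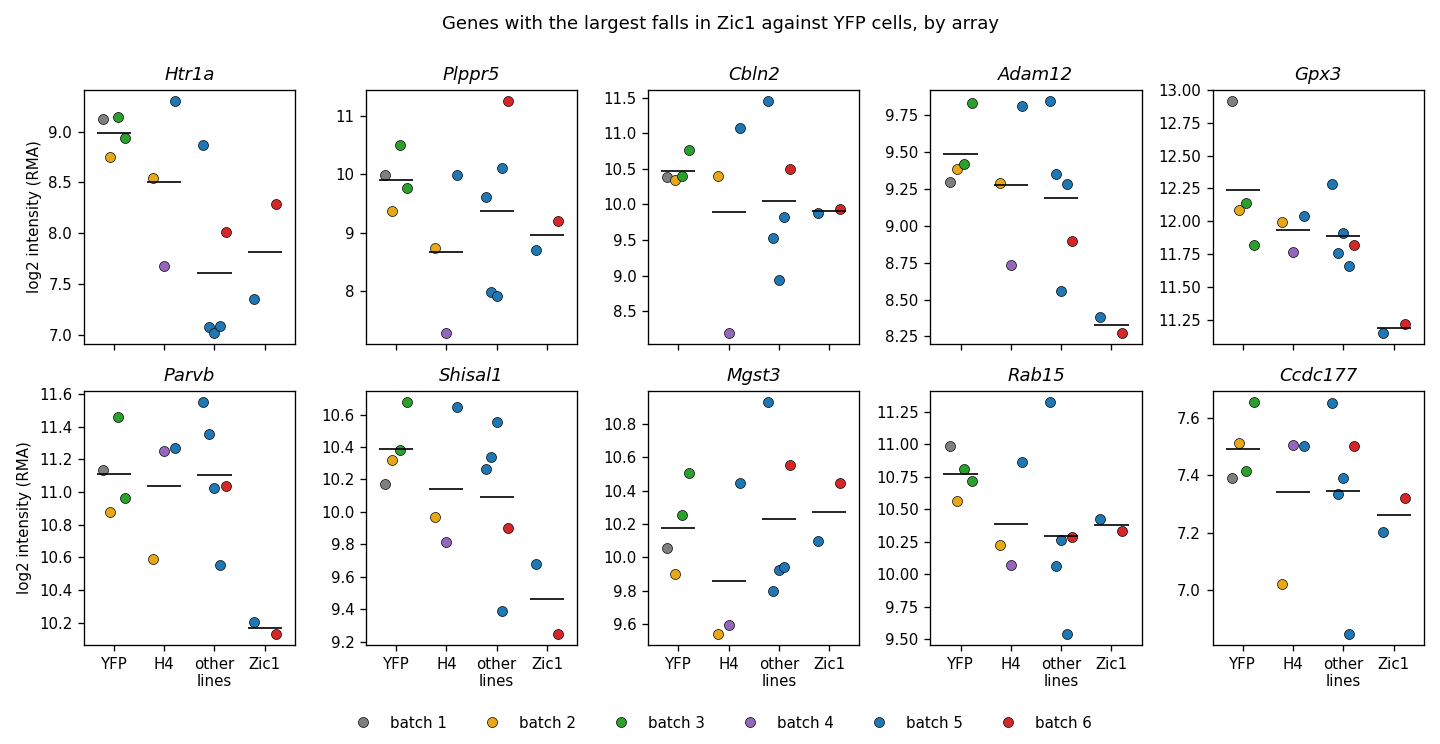
Panels, axes, groups and colours follow the plot of the rises, here for the 10 largest fitted falls; lines are group means. Among the arrays shown the Zic1 points are lowest in Adam12, Gpx3 and Parvb, and they lie among those of H4 or the other lines in Htr1a, Plppr5, Cbln2, Mgst3, Rab15 and Ccdc177.

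A comparison that needs no YFP array set Zic1 against the other 6 CD2 arrays of batches 5 and 6 (H4, Hoxa5, Hoxc6 and Lhx3), with a batch term and 5 residual degrees of freedom. The Hoxa5, Hoxc6 and Lhx3 lines carried induced genes of their own, so these arrays are not a neutral control. A difference from them, or the lack of one, may come from those genes as well as from Zic1, which was not tested. It called 13 genes (0.0652%), 13 higher and 0 lower, with 752 at an unadjusted p under 0.05. It shares the Zic1 arrays with the comparison against YFP, so its values are given side by side and not as separate evidence. Gal was higher by 3.77 ± 0.38 (adjusted p = 0.0152), Timp4 by 3.20 ± 0.25 (adjusted p = 0.00477) and Igfbpl1 by 2.21 ± 0.15 (adjusted p = 0.00199). Slc7a7 was higher by 2.14 ± 0.19 (adjusted p = 0.00965), Hsd11b2 by 2.06 ± 0.20 (adjusted p = 0.0142), Gfra3 by 1.84 ± 0.21 (adjusted p = 0.0282) and Angptl1 by 1.97 ± 0.26 (adjusted p = 0.049). In none of these 7 did any of the 6 other arrays reach the lower Zic1 array. The 7 were called against those same arrays, so this separation follows closely from the choice and adds no support. Among genes that rose against YFP but did not pass here were Fgf15 (1.96, adjusted p = 0.067), Cd9 (1.59, adjusted p = 0.069), Agmo (1.83, adjusted p = 0.838) and Zic1 itself (0.90, adjusted p = 0.686). The count was 0 without the Zic1 array of batch 5, 12 without the Lhx3 array of batch 5, and 3 to 8 without any other single array.

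The other 6 of the 13 are named because the count was small and their values had been seen. Kynu, an enzyme of tryptophan breakdown, was higher than in the same-batch lines by 1.90 (adjusted p = 0.0431) and read 8.39 and 7.16 in Zic1 against 5.78 to 6.30 in them. Lpar3, a receptor for lysophosphatidic acid, was higher by 1.64 (adjusted p = 0.0359) and Scgn, a calcium-binding protein of neuroendocrine cells, by 1.5 (adjusted p = 0.0282). Pcp4l1, related to a calmodulin-binding protein of Purkinje cells, was higher by 1.49 (adjusted p = 0.0248), and the galactosyltransferase gene B3galt5 by 1.07 (adjusted p = 0.025). Rassf4, a Ras association domain protein, was higher by 1.85 (adjusted p = 0.0359) and was the 1 of the 13 that did not pass against YFP, at 1.61 (adjusted p = 0.108). Its Zic1 arrays read 10.62 and 10.22 and its YFP arrays 8.13, 8.98, 8.90 and 9.39, without overlap.

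The comparison with the same-batch lines called 0 of all 19938 genes lower. That none of the 19 fallen genes passed there is therefore no result about them. In 18 of the 19 the difference there was below 0, with a median of -0.28. The 39 risen genes had a median of 1.05 in that comparison and 12 passed, where 0.0652% of all genes did. The median of all genes there was 0.02. Both comparisons use the same 2 Zic1 arrays, so these counts and medians follow in part from the choice of genes. For Parvb the difference was -0.93 ± 0.24 (adjusted p = 0.838), for Gpx3 -0.71 ± 0.17 (adjusted p = 0.728) and for Adam12 -0.85 ± 0.32 (adjusted p = 1).

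Against the H4 line fitted over all its 3 arrays, 72 genes differed (0.361%), 52 higher and 20 lower. Gal differed by 3.11 ± 0.39 (adjusted p = 4.64e-06), Timp4 by 2.51 ± 0.24 (adjusted p = 1.45e-08), Fgf15 by 2.41 ± 0.19 (adjusted p = 1.27e-10) and Zic1 by 1.19 ± 0.17 (adjusted p = 2.83e-05). Of the 10 largest falls against YFP, Plppr5, Mgst3, Rab15 and Ccdc177 did not pass against H4 (adjusted p = 0.0993, 0.297, 0.138 and 0.289). H4 and YFP cells differed from each other in 1 gene (0.00502%), the formyl peptide receptor family gene Fpr-rs6, named after its value was seen. At an unadjusted p under 0.05 there were 2124. The number of genes called was 184 without the H4 array of batch 4 and 146 without all of batch 4. The small number therefore does not show that H4 and YFP cells were alike.

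Gene lists for the identities at issue gave few calls. Of 34 lists, a member passed against YFP in the Zic family (Zic1, 1 of 4), the neuropeptides (Gal, 1 of 17) and the trophic factors and receptors (Gfra3, 1 of 16), each higher. Since 0.291% of all genes passed, a count of 0 in a list of this size is near the background and is no result about the list. The lists are therefore also given by their median, which was -0.03 for all genes, and by their genes at an unadjusted p under 0.05, which were 10.7% of all genes. Of 13 generic motor neuron genes 0 passed, 4 were at an unadjusted p under 0.05, and the median was -0.37. Isl1 read 12.42 and 12.24 in Zic1 and 12.46 to 12.89 in YFP, a difference of -0.58 ± 0.21 (adjusted p = 0.289). Slc18a3, the vesicular acetylcholine transporter, differed by -0.58 (adjusted p = 0.262), Chat by -0.05 (adjusted p = 0.959) and Mnx1 by -0.40 (adjusted p = 0.592). Lhx3 differed by 0.01 (adjusted p = 0.994), at 7.93 and 7.87 in Zic1 against 7.69 to 7.86 in YFP. Members of the list ran from -0.71 to 0.03. In Zic1 arrays each of the markers named here lay within the range of the other 43 CD2 arrays. In bulk RNA, fewer cells of a type and less RNA per cell cannot be told apart.

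In the phrenic list, which the screen addressed, 0 of 12 passed and 4 were at an unadjusted p under 0.05. Its median was 0.3 against YFP and -0.22 against the same-batch lines. Pou3f1, the phrenic POU factor, differed by -0.06 (adjusted p = 0.965), the cervical Hox gene Hoxa5 by 1.13 (adjusted p = 0.426) and Hoxc5 by 0.10 (adjusted p = 0.977). Hoxa5 read 10.80 in the batch 5 and 9.41 in the batch 6 Zic1 array, the first above and the second inside the YFP range of 9.06 to 9.97. The cadherin Cdh9 differed by 2.03 ± 0.89 (adjusted p = 0.405), with 6.93 and 5.41 in Zic1 on either side of the YFP arrays. Cdh10, Pcdh10 and Alcam, adhesion molecules, differed by 0.52, -0.53 and 0.54 (adjusted p = 0.547, 0.514 and 0.758). The secreted factor Ptn read 9.81 and 9.55 against 8.53 to 9.08 in YFP, a difference of 1.11 (adjusted p = 0.289). Same-batch lines ran from 8.28 to 10.54 for Ptn, around the Zic1 values. The difference from them was 0.53 and did not pass.

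Lists for places where Zic1 normally acts had 0 members past the test, as the background share gives for their size. At an unadjusted p under 0.05 there were 2 of 13 for dorsal neural tube progenitors (median -0.27), 1 of 13 for dorsal interneurons and sensory neurons (median -0.25), 1 of 11 for neural crest (median -0.22) and 4 of 13 for cerebellar granule neurons (median -0.01). Pax3, a dorsal progenitor factor, differed by -0.15 (adjusted p = 0.822), and Atoh1, a factor of dorsal and granule cell precursors, by -0.13 (adjusted p = 0.877). In the hedgehog pathway 0 of 12 passed and 5 of 12 were at an unadjusted p under 0.05, with a median of 0.34. Its target genes Gli1 and Ptch1 differed by 0.72 (adjusted p = 0.338) and 0.81 (adjusted p = 0.288). Gli1 read 8.58 and 9.02 in Zic1 against 7.95 to 8.38 in YFP, without overlap, while Ptch1 overlapped. In batch 5, Zic1 minus Lhx3 was -0.25 for Gli1 and -0.18 for Ptch1, and in batch 6 it was 1.07 and 0.91. Against all the same-batch lines the differences were 0.58 and 0.47, and neither passed. Members of the list, named here outside the rule, ran from -1.43 (Shh) to 1.26 (Gli3), with Hhip at -0.155.

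Lists of dividing and progenitor cells were examined as well. None of their genes passed, as the background share of 0.291% gives for their size. Cell cycle genes had 0 of 16 at an unadjusted p under 0.05, with a median of 0.34 and list means of 10.39 and 10.75 in the Zic1 arrays against 9.49 to 10.98 in YFP. Neural progenitor and radial glia genes had 2 of 16, with a median of 0.28 and list means of 10.15 and 10.39 against 9.81 to 10.42. The proliferation marker Mki67 read 10.43 and 10.41 against 9.55 to 11.13. In these 3 measures the Zic1 arrays lay inside the YFP range, and their part in the rises was not tested. At an unadjusted p under 0.05 there were 2 of 11 mesoderm, endothelium and fibroblast genes, 2 of 11 epithelial genes and 1 of 12 pluripotency genes, and 0 passed the adjusted test.

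**Figure D4:**
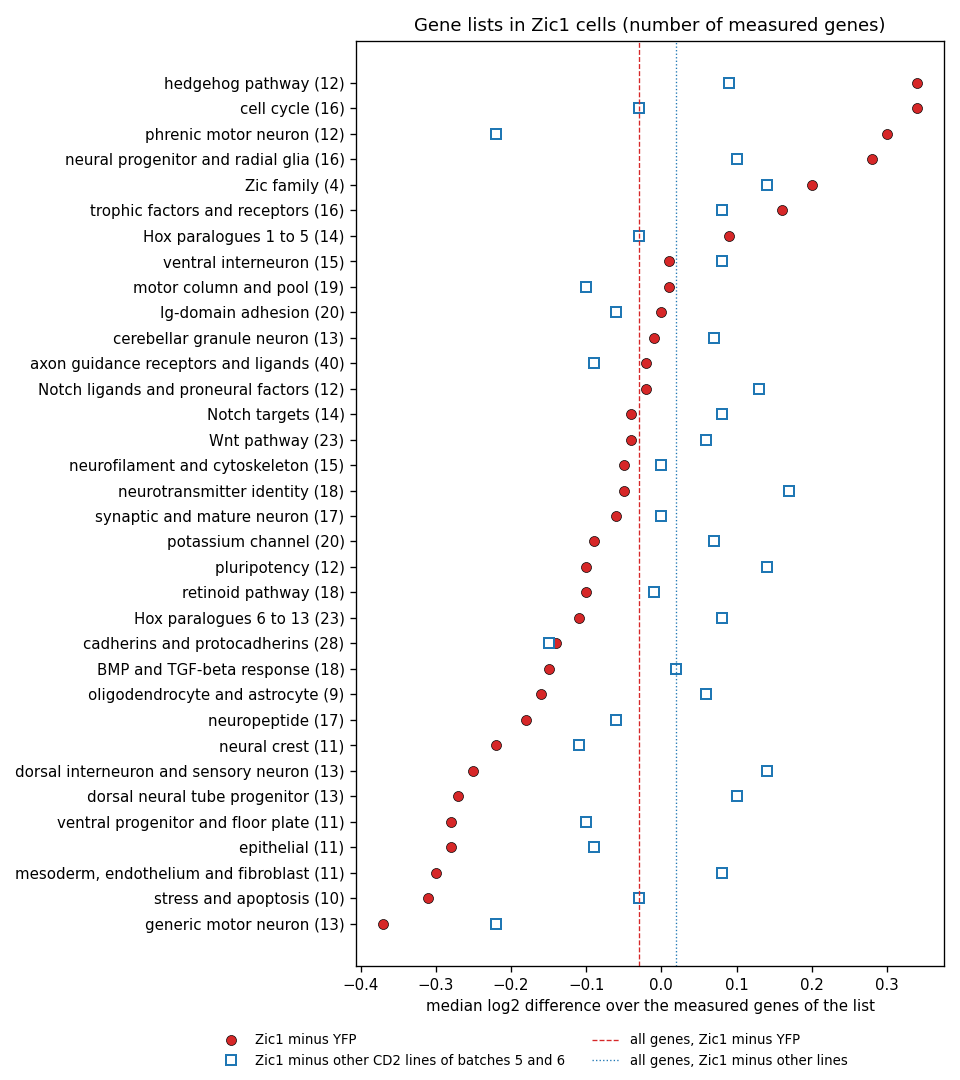
For each list the horizontal axis gives the median log2 difference over its measured genes, as filled circles for Zic1 minus YFP and open squares for Zic1 minus the same-batch CD2 lines; dashed and dotted lines mark the medians of all genes, -0.03 and 0.02. The hedgehog list lies at 0.34 and 0.09, and the generic motor neuron list at -0.37 and -0.22.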

How the data were processed

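Expression was measured on 68 Affymetrix mouse gene arrays. The deposited table holds log2 values for 35556 transcript clusters, made by the authors with RMA in oligo, as the submitters' processing notes name them. Their steps were taken as named, with tool versions and annotation build not given in the sources used here. Of the clusters, 21789 had 1 gene symbol in the array annotation, 1621 had several and 12146 had none. Clusters with several or none were left out, and the cluster with the highest mean was kept per gene, which left 19938 genes.

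limma 3.58.1 in R 4.3.3 fitted all 68 arrays with terms for group and batch (31 residual and 6.08 prior degrees of freedom) and the 8 CD2 arrays of batches 5 and 6 with terms for Zic1 and batch (5 residual and 4.03 prior). Tests were two-sided with Benjamini-Hochberg adjustment, and the script was tested on simulated data. Array number limits the precision.

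The rule for named genes took the 10 largest rises and falls called against YFP with the same sign in batch 5 Zic1 minus H4, the 5 largest against same-batch lines, up to 4 called members per list and a set of marker genes. RIKEN, predicted and small RNA genes were counted but not named except where stated. The members and lists were chosen with earlier results of these data known. Alternatives changed the batch handling, samples, normalization, array weights, brightness filter and intensity trend, and left out arrays in turn.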

Additional observations from a re-analysis of the deposited data

Results flagged for a closer look

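Cbln2 had 1 YFP array apart from the other 3. It read 10.76 in the second YFP array of batch 3, against 10.39, 10.34 and 10.39 in the other YFP arrays, a gap larger than Dixon's limit for 4 samples. Of 42 named genes examined in the YFP arrays this was the 1 set apart, and chance gives about 1 in 20 groups.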

How the results depend on the processing

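The count against YFP, 58, was 34 with array weights, 19 with CD2 arrays only, 139 with no batch terms, 88 without batch 4, 15 with Zic1, YFP and H4 arrays alone, 32 with the replicate block, and 40 to 142 with 1 array left out. It was 50 to 79 under the other 4 alternatives. Against H4, 72 became 30 with CD2 arrays only and 11 with those 3 groups alone, and ran from 59 to 97 with 1 array left out. Against same-batch lines, 13 became 5 with a term for each line, 35 with array weights, 3 with brighter genes only and 3 with the replicate block, and ran from 0 to 12 with 1 array left out (8 without the H4 array, 7 without the second Hoxc6 array). H4 against YFP, 1, became 0 under 8 alternatives and 146 without batch 4, and ran from 0 to 184 with 1 array left out. The Zic1 probe set, 1.17, was 0.91 (adjusted p = 0.269) in the 3 groups alone and 0.84 to 1.25 with 1 array left out (1.13 without the batch 5 Zic1 array). Mgst3 reversed, to 0.093, with no batch terms and in the 3 groups alone. The causes were not tested, beyond the fewer samples or genes that some alternatives hold. Deviations of Zic1 and YFP arrays from their groups correlated at -0.055 to 0.055. With 2 Zic1 arrays, whose deviations mirror each other, this cannot settle whether replicate numbers pair the arrays. No replicate block could be fitted for H4, whose arrays all carry the number 0. Of the 20 called named genes besides Zic1, 6 kept their call without any 1 array (Gal, Timp4, Igfbpl1, Fgf15, Slc7a7 and Htr1a). Over those 20, leaving out 1 array kept 145 values past the threshold and lost 35, and the other alternatives kept 147, lost 46 and reversed 2. Arrays carry no read depth, and background was not analysed here.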

Other observations

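Further rises, singled out after their values were seen, lay between 1.0 and 1.8. Fgf10, a fibroblast growth factor of mesenchyme and neural tissue, read 8.41 and 7.86 in Zic1 against 6.26 to 6.87 in YFP, a rise of 1.67 ± 0.24 (adjusted p = 0.0001) by limma, above all 43 other CD2 arrays. Pcp4l1 rose by 1.74 ± 0.28 (adjusted p = 0.000705) and Lpar3 by 1.38 ± 0.23 (adjusted p = 0.00103). The rises of Kynu and Scgn were 1.55 ± 0.26 (adjusted p = 0.00143) and 1.37 ± 0.25 (adjusted p = 0.00316). Apold1, an apolipoprotein L domain protein of activated endothelium, read 8.61 and 9.62 against 7.33 to 7.87, a rise of 1.00 ± 0.22 (adjusted p = 0.0271), also above all 43.

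Among the smaller falls was Onecut1, a transcription factor of newly formed motor neurons. It read 11.09 and 11.26 in Zic1 against 11.51 to 12.10 in YFP, a fitted difference of -0.85 ± 0.19 (adjusted p = 0.0328) by limma. Same-batch lines ran from 11.02 to 11.81, around the Zic1 values, and the difference from them was -0.19 (adjusted p = 1).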
